A study of Mus musculus with 25 samples.

Results

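Expression of the GDNF and neurotrophin factors and their receptors was examined in the developing mouse palate. The 7 genes, taken by symbol from the 37406 genes of the expression table, were the ligand genes Gdnf, Bdnf and Ntf3, the GDNF family co-receptor genes Gfra1 and Gfra2, and the neurotrophin receptor genes Ntrk2 and Ntrk3. They were chosen with their levels in these libraries already known, so their values are given as a description and without p-values. By the labels, the palates came from wild type embryos of the CD1 strain at E14.5, soon after the palatal shelves meet at the midline. Laser capture microdissection (LCM), which cuts chosen areas from tissue sections, divided the anterior palate, and likewise the posterior, into medial and lateral compartments. In a separate division each was cut into oral and nasal compartments, so oral or nasal tissue can overlap medial or lateral tissue. RNA-Seq was carried out on 25 libraries. There were 3 libraries of each of the 8 compartments, except for 4 of the anterior nasal compartment. Levels are RPKM, in which reads are divided by transcript length and by the size of the library, and log2 differences are on the scale of log2(RPKM + 0.1).

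GDNF is a secreted factor of the TGF-beta superfamily that binds a co-receptor of the GFR-alpha family, anchored to the membrane by a lipid, and the complex then activates the receptor tyrosine kinase Ret. The neurotrophins BDNF and NT-3, the latter encoded by Ntf3, signal mainly through the receptor tyrosine kinases TrkB (Ntrk2) and TrkC (Ntrk3), and all neurotrophins also bind the p75 receptor (Ngfr). These factors are best known for the survival and the growth of axons of peripheral neurons, and GDNF also for branching of the ureteric bud in the kidney, where it is made by mesenchyme.

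Few reads per library entered the values. The steps between low values placed the depth behind them at about 1640000 to 6560000 reads, with a median of 3270000. The values were computed after duplicate and multiply aligned reads were removed. This depth is thus not the number of reads sequenced, for which the paper states a far higher average per sample. Correlations between replicates lay between 0.612 and 0.932 over 27 pairs. Posterior medial replicate 2 had 8651 genes at 5 RPKM or more and anterior oral replicate 1 had 9344, the fewest of the 25 libraries. Sequencing run, read from the alignment names, took 8 values, and no medial library shared a run with a lateral library of the same side, so run and compartment cannot be told apart in the medial to lateral comparisons. Alignment names of 6 libraries also carried the name of a mutant line, ERK2 in 2 and Tgfbr2 in 4, together with WT. The labels give CD1 wild type for these libraries too, and this was not reconciled, so their strain is uncertain. Markers of palatal mesenchyme summed to between 563.9 and 1159 RPKM in every library. The compartments are mixtures of cells, in which fewer cells of a type and less RNA per cell cannot be told apart.

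The promoters of 2 ligand genes, Gdnf and Ntf3, are shown because their transcripts had the most localized levels among the ligands. Of the 7 genes, 5 matched a promoter in the RefSeq table for GRCm38.p6. The 250 bases before the most upstream listed start are given 5′ to 3′ along the gene, Gdnf from chr15:7809798-7810047 on the + strand and Ntf3 from chr6:126166745-126166994 on the - strand. Capitals mark matches, on either strand, to the E-box CANNTG that basic helix-loop-helix factors read, to the TATA box written as TATAAA, or to the GC box written as GGGCGG.
Gdnf: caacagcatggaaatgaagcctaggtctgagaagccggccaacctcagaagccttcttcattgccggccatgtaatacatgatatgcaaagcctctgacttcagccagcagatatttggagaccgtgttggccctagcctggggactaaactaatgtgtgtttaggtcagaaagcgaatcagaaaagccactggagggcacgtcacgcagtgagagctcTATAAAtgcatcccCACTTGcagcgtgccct
Ntf3: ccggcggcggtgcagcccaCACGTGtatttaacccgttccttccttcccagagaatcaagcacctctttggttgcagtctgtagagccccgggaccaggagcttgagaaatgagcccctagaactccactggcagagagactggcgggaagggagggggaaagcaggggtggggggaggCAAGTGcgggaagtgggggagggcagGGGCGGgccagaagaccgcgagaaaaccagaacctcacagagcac

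The Gdnf stretch held TATAAA beginning 31 bases before the start and 1 match to CANNTG, with 50.8% G and C. Both genes had 2 listed starts. The stretch before the other Gdnf start, at chr15:7813477-7813726, held no TATAAA and had 46.8% G and C. Which start was used in the palate was not determined. The Ntf3 stretch was richer in G and C, at 62%, and held 2 matches to CANNTG and 1 to GGGCGG. Of 32851 promoter stretches of the same length, 12.4% held the TATA box, 66.2% held the E-box and 32.7% held the GC box. Neither stretch held TAATTA, the core read by many homeodomain factors, which 4.84% of promoters held, or ACAAAG, which 16.5% held. These matches describe the letters only, and no binding was measured here.

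Levels of the 7 genes spanned a wide range. Gfra2 was the most abundant, with a median of 70.3 RPKM over the 25 libraries, followed by Ntrk3 at 9.89, Ntf3 at 6.72, Ntrk2 at 6.19 and Gfra1 at 3.63 RPKM. Gdnf and Bdnf were low, with medians of 0.517 and 0.472 RPKM. Gfra2 exceeded 10 RPKM in all 25 libraries, whereas Bdnf stayed under 5 RPKM in all 25. By these medians Ntrk3 was above its ligand gene Ntf3, Ntrk2 above Bdnf and Gfra1 above Gdnf. By compartment means the order was reversed for Ntf3 and Ntrk3 in posterior medial (26.9 against 1.71 RPKM), lateral (9.78 against 5.36) and oral (9.94 against 7.30). For Gdnf and Gfra1 it was reversed in anterior medial (7.28 against 5.46 RPKM). In the remaining compartments the receptor gene had the higher mean.

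**Figure D1:**
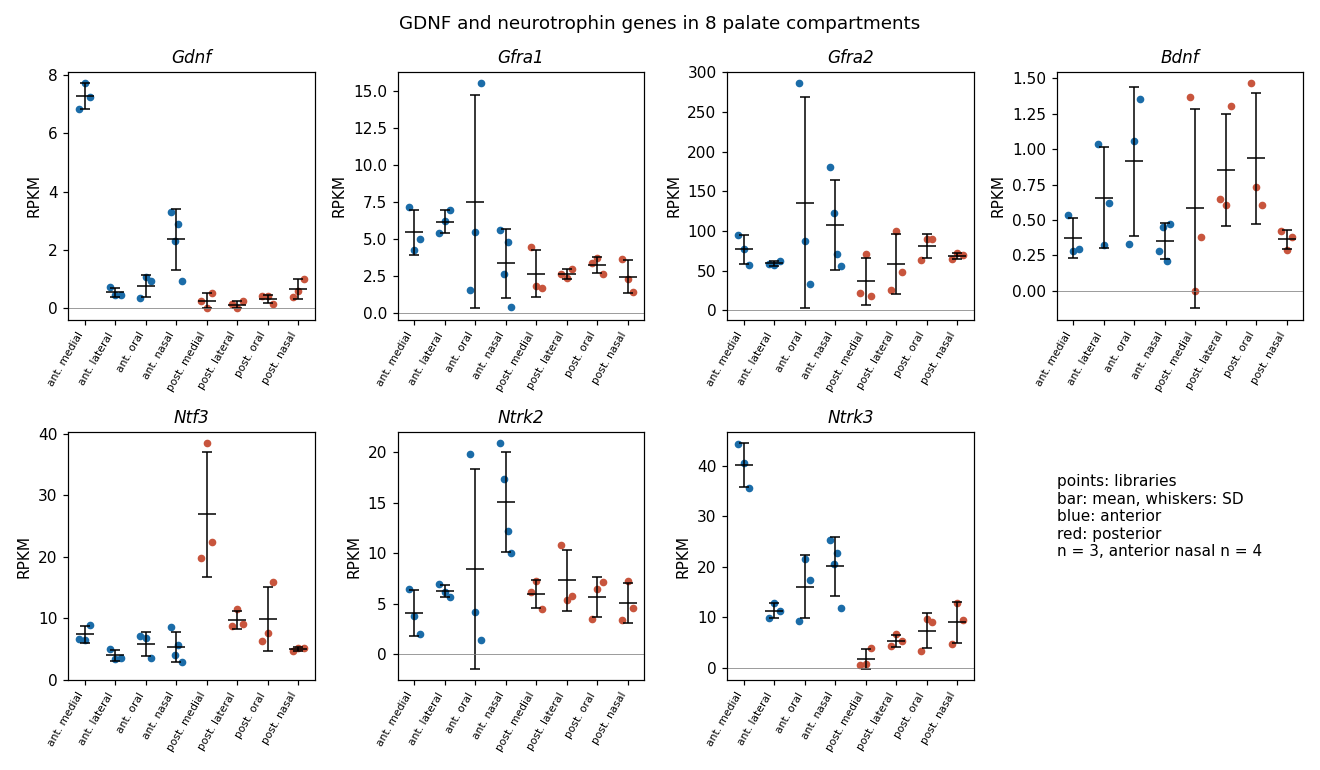
RPKM (linear axes, scaled for each gene) of the 7 genes in 8 palate compartments, with 1 point per library, the mean as a bar and the SD as whiskers. Gdnf and Ntrk3 were highest in the anterior medial libraries, at 6.86 to 7.73 and 35.6 to 44.3 RPKM, and Ntf3 in the posterior medial libraries, at 19.8 to 38.5 RPKM.

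Gdnf was found chiefly in the anterior medial compartment. The gene (identifier 14573) lies at chr15:7761011-7787575 in mm9, the build of the table. Its level in the 3 anterior medial libraries was 6.86, 7.73 and 7.27 RPKM. In the anterior nasal libraries it was 3.30, 2.32, 2.90 and 0.934 RPKM. Every anterior medial library was above every other library of the series, and the anterior nasal compartment came next.

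Gdnf measured 0.348, 1.06 and 0.932 RPKM in the anterior oral libraries and 0.736, 0.475 and 0.443 RPKM in the anterior lateral libraries. The posterior nasal libraries gave 0.375, 0.592 and 1.02 RPKM and the posterior oral libraries 0.410, 0.415 and 0.155 RPKM. The posterior medial libraries gave 0.262, 0 and 0.517 RPKM and the posterior lateral libraries 0.144, 0 and 0.245 RPKM. In order of mean level, only the steps from anterior medial to anterior nasal and from anterior lateral to posterior oral separated neighbours without overlap. The anterior medial values rested on about 78.6 to 88.9 reads per library, against 4.0 to 7.2 in anterior lateral and 0 to 7.0 in posterior medial libraries. A count of 0 allowed up to 0.364 RPKM in posterior medial replicate 2 and 0.359 RPKM in posterior lateral replicate 2, taking 3 reads as the limit, and this covers counting error only.

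Ntrk3 followed a similar order. It encodes TrkC, the preferred receptor of NT-3, and lies at chr7:85337000-85722724. The anterior medial libraries held 44.3, 40.5 and 35.6 RPKM. The anterior nasal libraries held 25.4, 20.6, 22.7 and 11.8 RPKM and the anterior oral libraries 9.17, 21.6 and 17.4 RPKM. Anterior medial libraries were again above all others, with anterior nasal and anterior oral overlapping.

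Anterior lateral libraries held 9.89, 12.9 and 11.2 RPKM of Ntrk3. Posterior nasal libraries held 4.66, 12.8 and 9.38 RPKM and posterior oral libraries 3.34, 9.55 and 9.02 RPKM. Posterior lateral libraries held 4.21, 6.59 and 5.29 RPKM and posterior medial libraries 0.505, 0.715 and 3.91 RPKM. The medial compartment was thus at the top of the order anteriorly and at the bottom posteriorly, in both cases without overlap with its neighbour in the order. The 3 posterior medial values rested on about 11 to 98.9 reads.

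Ntf3 had the opposite placement along the anterior to posterior axis. It lies at chr6:126051430-126116762. The posterior medial libraries held 19.8, 38.5 and 22.4 RPKM, above all other libraries. The posterior lateral libraries held 8.71, 11.5 and 9.16 RPKM and the posterior oral libraries 6.28, 7.63 and 15.9 RPKM. Posterior lateral and posterior oral values overlapped.

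The remaining compartments had less Ntf3. The anterior medial libraries held 6.72, 6.53 and 8.96 RPKM and the anterior oral libraries 7.09, 6.85 and 3.63 RPKM. The anterior nasal libraries held 8.66, 4.13, 5.70 and 2.86 RPKM and the posterior nasal libraries 4.71, 5.20 and 5.13 RPKM. The anterior lateral libraries were the lowest on average, at 5.04, 3.41 and 3.57 RPKM. From posterior oral down to anterior lateral, each neighbour in the order overlapped the next.

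Ntrk2, which encodes TrkB and lies at chr13:58907957-59231328, was highest on average in the anterior nasal compartment. The 4 anterior nasal libraries held 20.9, 17.3, 12.2 and 10 RPKM. The anterior oral libraries held 19.8, 4.2 and 1.44 RPKM, which spanned almost the whole range of the gene. The other 6 compartments had means between 4.10 and 7.33 RPKM and overlapped their neighbours in the order. RPKM per gene does not separate the kinase form of TrkB or TrkC from the truncated forms made from the same genes.

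Gfra2 encodes the co-receptor preferred by neurturin, a relative of GDNF, and lies at chr14:71289937-71379645. It was detected throughout the palate. The anterior oral libraries held 286, 87.6 and 33.3 RPKM and the anterior nasal libraries 180, 123, 71.1 and 56.4 RPKM. The posterior medial libraries held 21.5, 70.6 and 18.2 RPKM, the lowest mean of the 8 compartments. Replicates of one compartment differed so widely that only posterior nasal and anterior lateral, next to each other in the order, did not overlap.

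Gfra1 encodes the co-receptor preferred by GDNF and lies at chr19:58311182-58529849. The anterior lateral libraries held 5.38, 6.21 and 6.92 RPKM and the anterior medial libraries 7.16, 4.24 and 4.97 RPKM. The anterior oral libraries held 1.52, 5.50 and 15.5 RPKM and the anterior nasal libraries 5.57, 2.62, 4.80 and 0.393 RPKM. Posterior means lay between 2.45 and 3.24 RPKM. All neighbours in the order overlapped.

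Bdnf, at chr2:109514857-109567200, was near the limit of detection, with a median of about 10 reads per library. The posterior oral libraries held 1.46, 0.731 and 0.607 RPKM and the posterior nasal libraries 0.421, 0.291 and 0.383 RPKM. The lowest mean was in the anterior nasal compartment, at 0.353 RPKM ± 0.127 (SD, n = 4). All neighbours in the order overlapped.

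The medial and lateral compartments were compared in the anterior palate first. Gdnf was 13.2-fold higher in the medial compartment, at 7.28 RPKM ± 0.436 against 0.551 ± 0.161 (SD, n = 3 each), a lateral minus medial difference of -3.53 on the log2 scale (SE 0.18). Ntrk3 was 3.55-fold higher in the medial compartment, at 40.1 RPKM ± 4.32 against 11.3 ± 1.49, a difference of -1.82 (SE 0.14). Ntf3 was 1.85-fold higher in the medial compartment, at 7.40 RPKM ± 1.35 against 4.01 ± 0.90, a difference of -0.88 (SE 0.19). For these 3 genes all medial libraries were above all lateral libraries, and for the other 4 the groups overlapped. Of all 10427 genes tested, 11.6% had every medial library above every lateral library.

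The expression minimum of 5 RPKM in 3 libraries was met by 6 of the 7 members, Gdnf only through the 3 medial libraries. Leaving out 1 library at a time gave -3.72 to -3.41 for Gdnf and -1.92 to -1.73 for Ntrk3. In a fit of all 25 libraries with run as a term the differences were -4.76 and -1.38. Neuron markers summed to 39.8 to 60.8 RPKM in anterior medial and 12.1 to 18.1 RPKM in anterior lateral libraries, with Prph the most abundant, although only 5 of the 13 genes were higher in medial, and Pou4f1 was at 0 in both. Schwann cell markers went the other way, at 12.1 to 17.5 RPKM in medial and 37.3 to 46.4 RPKM in lateral libraries, with 8 of 9 genes higher in lateral. Endothelial markers were also higher in lateral for 5 of 5 genes, at 132 to 150.4 against 96.6 to 115.1 RPKM. Epithelial markers summed to 49.0 to 97.4 RPKM in medial and 25.9 to 50.4 RPKM in lateral libraries, with 4 of 6 genes higher in medial. The part of these cells in the differences was not tested.

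In the posterior palate the same comparison gave a different picture for Ntrk3. Its level was 3.14-fold higher in the lateral compartment, at 5.36 RPKM ± 1.19 against 1.71 ± 1.91, a lateral minus medial difference of 2.10 (SE 0.73). Ntf3 was 2.75-fold higher in the medial compartment, at 26.9 RPKM ± 10.1 against 9.78 ± 1.48, a difference of -1.40 (SE 0.35). All lateral libraries were above all medial ones for Ntrk3, and the reverse held for Ntf3, while the other 5 members overlapped. Among all 10324 genes tested, 3.02% were separated with lateral higher and 3.59% with medial higher. Posterior medial replicate 3 held the most Ntrk3 of the medial libraries, and without it the difference was 2.94 and the ratio of means 8.80, against 1.57 without posterior medial replicate 1. Ntrk3 did not reach the expression minimum in this comparison.

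No gene was called between posterior lateral and posterior medial by limma with adjustment over all genes (159 had an unadjusted p under 0.05, 1.54% of those tested). Epithelial markers summed to 36.9 to 103 RPKM in posterior medial and 10.6 to 14.2 RPKM in posterior lateral libraries, with 6 of 6 higher in medial. Red cell markers were higher in medial for 5 of 5 genes, at 644.1 to 859 against 366.5 to 791.1 RPKM. On the lateral side, where Ntrk3 was higher, so were 8 of 8 skeletal muscle markers, at 20.2 to 153.2 against 6.83 to 24.8 RPKM, and 5 of 5 endothelial markers, at 110.5 to 136.8 against 58.2 to 152.3 RPKM. The part of these cells in the Ntf3 and Ntrk3 values was not tested. Medial minus lateral, the anterior value of Ntrk3 exceeded the posterior one by 3.92 (SE 0.80) and that of Gdnf by 3.06 (SE 0.88). Without posterior medial replicate 3 the value for Ntrk3 was 4.76, and over all 12 libraries left out in turn it lay between 3.39 and 4.76, and that for Gdnf between 2.31 and 3.63, an alternative chosen after seeing the data. The posterior part of the Gdnf value rested on 0 to 7.0 reads per library and ranged from -1.22 to 0.10 (lateral minus medial) as 1 library was left out, so its sign was not fixed. Of 11089 genes, 1 was called for such a difference (0.00902%), Thbs2, which is not a member. Ntf3 was higher medially on both sides, and its anterior less posterior difference was -0.52 (SE 0.40).

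**Figure D2:**
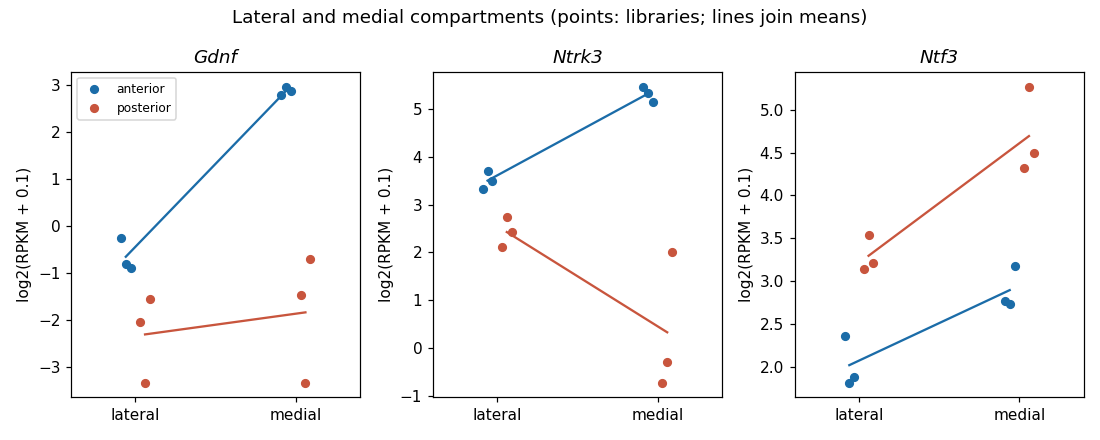
Levels of Gdnf, Ntrk3 and Ntf3 as log2(RPKM + 0.1) in lateral and medial libraries of the anterior (blue) and posterior (red) palate, with lines joining group means. Ntrk3 was higher in medial than lateral anteriorly (40.1 against 11.3 RPKM) and lower in medial posteriorly (1.71 against 5.36 RPKM).

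Oral and nasal compartments were then compared. In the anterior palate Gdnf averaged 0.781 RPKM ± 0.381 in oral and 2.36 ± 1.04 in nasal libraries, an oral minus nasal difference of -1.47 (SE 0.50). Ntrk2 averaged 8.47 RPKM ± 9.89 in oral and 15.1 ± 4.92 in nasal libraries, a difference of -1.52 (SE 0.76). Gfra1 averaged 7.51 RPKM ± 7.21 in oral and 3.34 ± 2.33 in nasal libraries, a difference of 1.08 (SE 0.99). Leaving out 1 library moved the Ntrk2 value between -2.51 and -0.66 and the Gfra1 value between 0.29 and 1.92. Oral and nasal libraries overlapped for all 7 members. Gdnf and Ntrk2 were lower in oral in each of the 3 pairs with the same replicate number. The labels do not state such pairs, only replicate 1 shared a run, and anterior nasal replicate 4 had no partner. Of 10684 genes tested, 3.67% did not overlap, and limma called 0 genes, with 318 at an unadjusted p under 0.05 (2.98%).

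The anterior differences were not alike across the 3 sequencing runs that held both compartments. Within run0175 Gdnf was 0.932 RPKM in oral and 0.934 RPKM in nasal, whereas within run0297 it was 0.348 RPKM against 2.81 RPKM and within run0324 1.06 RPKM against 2.90 RPKM. Gfra1 changed direction between runs, at 15.5 against 0.393 RPKM in run0175 and 1.52 against 4.09 RPKM in run0297. Ntrk2 was lower in oral within run0175 and run0324, at 1.44 against 10 RPKM and 4.2 against 12.2 RPKM, but level within run0297, at 19.8 against 19.1 RPKM. Schwann cell markers summed to 51.1 to 72.8 RPKM in anterior oral and 12.5 to 29.5 RPKM in anterior nasal libraries, with 8 of 9 genes higher in oral, and endothelial markers to 116.5 to 176.1 against 64.5 to 110.4 RPKM, with 5 of 5 higher in oral. Osteoblast markers were lower in oral for 4 of 5 genes, at 43.6 to 73.1 against 87.4 to 115.6 RPKM. The part of these cells in the member values was not tested. Anterior oral replicate 1, the library with the lowest implied depth, held both the highest Gfra2 and the lowest Gdnf among the anterior libraries.

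**Figure D3:**
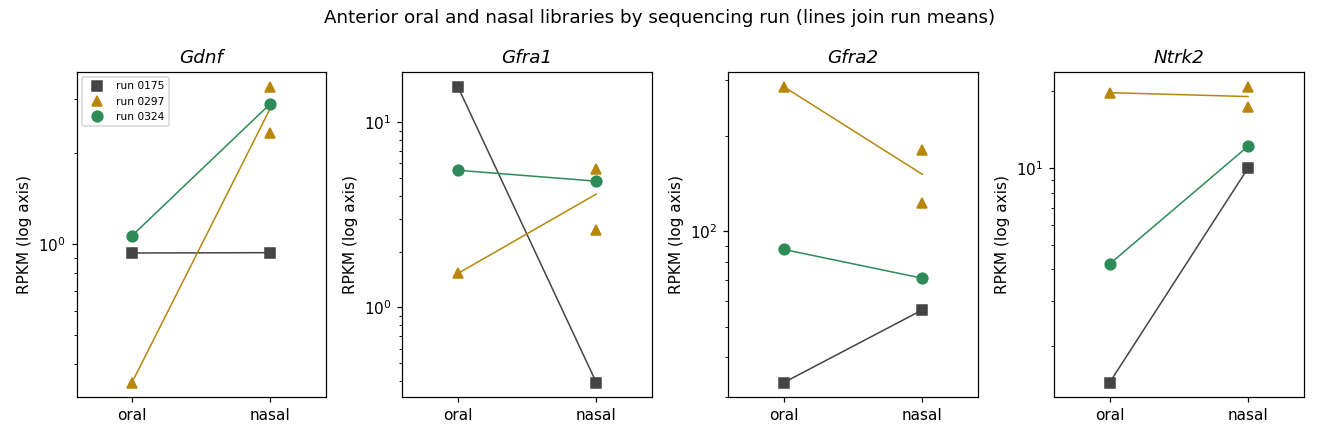
RPKM on log axes of Gdnf, Gfra1, Gfra2 and Ntrk2 in the 3 anterior oral and 4 anterior nasal libraries, with colours and symbols for the 3 sequencing runs and lines joining run means. Gfra1 was higher in oral in run0175 (15.5 against 0.393 RPKM) and lower in run0297 (1.52 against 4.09 RPKM).

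In the posterior palate Ntf3 averaged 9.94 RPKM ± 5.21 in oral and 5.01 ± 0.265 in nasal libraries, a difference of 0.86 (SE 0.34). Bdnf averaged 0.934 RPKM ± 0.463 in oral and 0.365 ± 0.0673 in nasal libraries, a difference of 1.08 (SE 0.32), on 6.0 to 57.3 reads. All oral libraries were above all nasal libraries for both ligands, while 6.21% of all genes tested were separated in that direction, and the other 5 members overlapped. Without posterior oral replicate 3 the Ntf3 difference was 0.46. By limma 1.25% of all 10586 genes tested were called. Since oral and nasal libraries did not overlap for these ligands, their direction within any run was fixed and adds no support. In run0175 (1 oral and 1 nasal library) Ntf3 was 6.28 against 4.71 RPKM and Bdnf 1.46 against 0.421 RPKM. In run0366 (2 oral libraries and 1 nasal) Ntf3 was 11.8 against 5.20 RPKM and Bdnf 0.669 against 0.291 RPKM.

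Endothelial markers moved with the oral side, at 118 to 179 RPKM in posterior oral and 52.3 to 79.3 RPKM in posterior nasal libraries, with 5 of 5 higher in oral. Schwann cell markers did so too, at 36.2 to 48.0 RPKM against 13.2 to 21.1 RPKM, with 8 of 9 higher in oral. Red cell markers were higher in oral for 5 of 5 genes, at 620 to 969.3 against 331.8 to 550.4 RPKM. Macrophage markers were higher in oral for 5 of 5 genes, at 37.0 to 53.5 against 22.7 to 43.8 RPKM. Osteoblast markers were at 376.5 to 546.1 RPKM in posterior nasal and 82.5 to 105 RPKM in posterior oral libraries. The part of these cells in the Bdnf and Ntf3 values was not tested.

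All anterior libraries were compared with all posterior libraries, with compartments pooled. Ntrk3 averaged 21.8 RPKM ± 11.8 (SD, n = 13) in anterior and 5.83 ± 3.75 (SD, n = 12) in posterior libraries, a posterior minus anterior difference of -2.12 (SE 0.42). Gdnf averaged 2.72 RPKM ± 2.77 against 0.345 ± 0.285, a difference of -2.28 (SE 0.49). Ntf3 averaged 5.63 RPKM ± 2.03 against 12.9 ± 9.97, a difference of 0.96 (SE 0.29). Anterior and posterior libraries overlapped for all 7 members, as they did for all but 0.267% of the 8608 genes tested. Gfra2, Ntrk2 and Ntrk3 met the minimum of 10 RPKM in 6 libraries, Ntrk3 through 11 anterior libraries and 1 posterior library. Epithelial markers were higher in anterior for 6 of 6 genes, at 25.9 to 97.4 RPKM against 10.6 to 103 RPKM, and red cell markers higher in posterior for 5 of 5, at 331.8 to 969.3 against 297.1 to 641 RPKM. Their part in the member values was not tested.

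Levels were also set out compartment by compartment within single runs, with a different run for medial, for lateral and for oral with nasal. In run0366 Gdnf was 7.28 RPKM in anterior medial and 0.258 RPKM in posterior medial, Ntrk3 40.1 and 2.31 RPKM, and Ntf3 7.40 and 30.4 RPKM. In run0391 Ntrk3 was 11.2 RPKM in anterior lateral and 5.94 RPKM in posterior lateral, and Ntf3 3.57 and 10.3 RPKM. In run0175 Ntrk3 was 17.4 and 3.34 RPKM in oral and 11.8 and 4.66 RPKM in nasal. Ntrk3 was higher and Ntf3 lower on the anterior side in each of these 4 compartments, Ntf3 measuring 3.63 against 6.28 RPKM in oral and 2.86 against 4.71 RPKM in nasal. The oral and nasal values are each from 1 anterior and 1 posterior library. The lateral values are from 1 anterior and 2 posterior libraries, and the medial values from 3 and 2. In medial and in lateral, anterior and posterior libraries were already fully separated for Ntrk3 and Ntf3. The direction within a run was thus fixed there and adds no support. Over all nasal libraries Ntf3 went the other way, with a mean of 5.34 RPKM in anterior and 5.01 RPKM in posterior libraries, and the ranges overlapped.

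**Figure D4:**
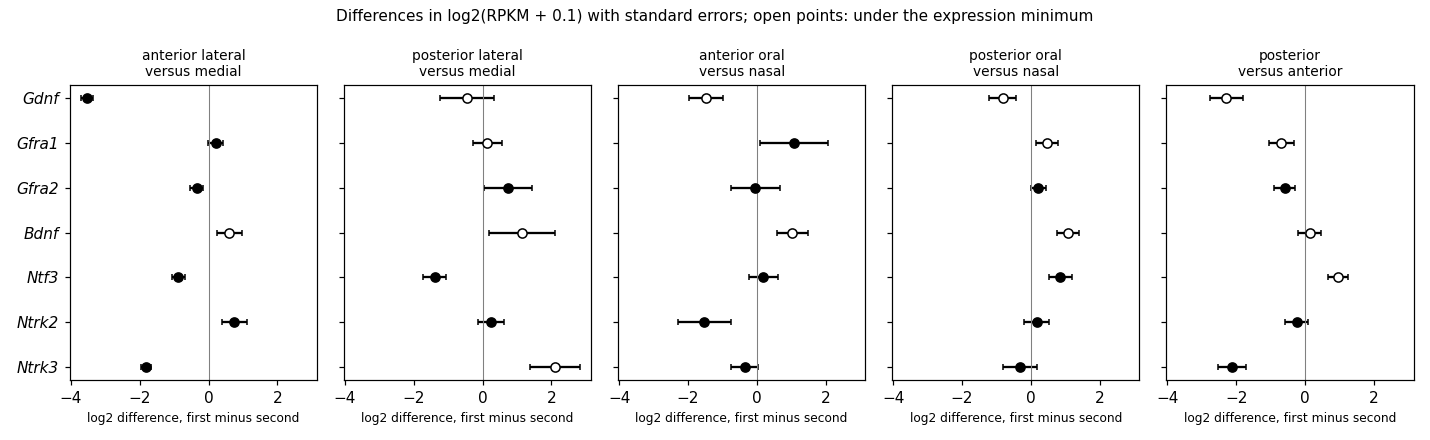
Log2 differences, first minus second compartment, of the 7 genes in 5 comparisons, with standard errors as bars. Filled points met the expression minimum. Gdnf (-3.53) and Ntrk3 (-1.82) lay farthest to the medial side in the anterior palate.

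The signalling partners outside the 7 genes were then examined. Ret, the kinase through which GDNF acts with GFR-alpha, was low in every library, at 0 to 1.91 RPKM and a median of 7.0 reads. In the anterior medial libraries, where Gdnf was highest, Ret was 0, 0.0831 and 0 RPKM. The highest Ret value, 1.91 RPKM, was in anterior nasal replicate 1.

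Ngfr, by contrast, reached 8.57 to 93.6 RPKM. In the posterior oral libraries it was 50.4, 80.8 and 46.6 RPKM and in the posterior nasal libraries 25.9, 14.6 and 8.57 RPKM. All oral libraries were above all nasal libraries, with a difference of 1.95 (SE 0.41) that did not pass the test (limma, adjusted p = 0.0775). The Schwann cell, endothelial, red cell and macrophage markers named above were higher on the same side, and osteoblast markers on the other. The part of these cells in the Ngfr values was not tested.

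**Figure D5:**
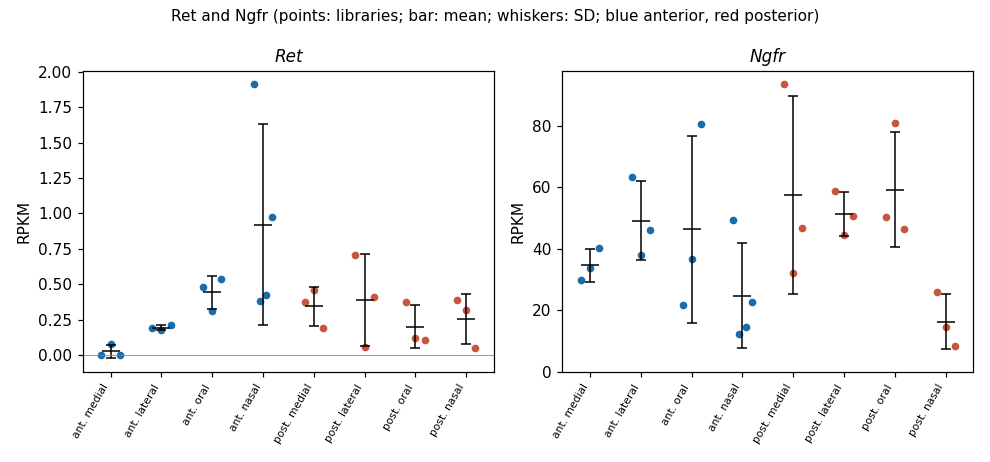
RPKM of Ret and Ngfr in 8 compartments, with 1 point per library, the mean as a bar and the SD as whiskers. Ret stayed at or under 1.91 RPKM, and Ngfr ranged from 8.57 to 93.6 RPKM.

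Other genes of the pathway were taken from lists, with 76 genes in the table. The lists covered the GDNF family, the neurotrophin family, adaptors of Ret and the Trk receptors, and regulators of Gdnf in kidney development. They were chosen with earlier results of these data known, so their counts and p-values are a description and not independent tests. The paper had already reported differences of Osr1 and Eya1 from these data. Between anterior lateral and anterior medial, 6 of 47 tested were called, 2 higher in lateral and 4 higher in medial, against 1.43% and 1.08% of all genes tested (2.51% together), with a median difference of 0.08 against -0.03 over all genes. Osr1, a transcription factor gene of the kidney mesenchyme, was 109 RPKM ± 8.86 in lateral and 22.9 ± 0.869 in medial libraries (log2 difference 2.24, adjusted p = 0.000243). Slit2, whose product signals through Robo2 and limits the Gdnf domain in the kidney, was 38.5 RPKM ± 1.94 in lateral and 11.2 ± 0.256 in medial libraries (1.77, adjusted p = 0.000558). Both were lower in anterior medial than in anterior lateral libraries, opposite to Gdnf, but this did not extend to the other compartments, since anterior nasal libraries, second in Gdnf, averaged 62.0 RPKM of Osr1 and 30 RPKM of Slit2.

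The 4 pathway genes higher in the medial compartment included Dok5, an adaptor of Ret and Trk receptors, at 8.19 RPKM ± 3.22 against 1.64 ± 0.203 (-2.19, adjusted p = 0.00757). Sorcs3, of the sortilin receptor family, was 5.71 RPKM ± 0.649 against 1.27 ± 0.607 (-2.19, adjusted p = 0.0189). Pcsk5, a proprotein convertase, gave a difference of -1.01 (adjusted p = 0.0245). Six4, a transcription factor gene, gave a difference of -0.57 (adjusted p = 0.0409). Leaving out 1 library at a time, Osr1 and Slit2 were called in 6 of 6 fits, Pcsk5 in 2 and Six4 in 0. Dok5 and Sorcs3 met the expression minimum only through the 3 medial libraries, so that they had to differ to be tested. None of the 6 was called with run in the fit.

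Between posterior and anterior, 7 of 39 pathway genes tested were called, 5 of them higher in anterior and 2 in posterior. Of all genes, 1.66% were called in each direction (3.32% together). This fit took the pooled libraries of each side as replicates, with no term for compartment. Libraries of different compartments may share embryos or tissue, so its p-values may overstate the replication. Eya1, which acts upstream of Gdnf in the kidney, was 49.2 RPKM ± 10.4 in anterior and 10.7 ± 6.15 in posterior libraries without overlap (-2.41, adjusted p = 6.4e-07). Slit2 was 25.9 RPKM ± 11.1 against 7.87 ± 1.83, also without overlap (-1.59, adjusted p = 3.07e-05). Itga8, an integrin subunit of the kidney mesenchyme, differed by -1.45 (adjusted p = 3.28e-05), Osr1 by -1.35 (adjusted p = 0.0465) and Pcsk5 by -0.61 (adjusted p = 0.0428). Sorcs3 and Six2 were higher in posterior, by 1.67 (adjusted p = 0.0111) and 0.99 (adjusted p = 0.0219). Eya1, Slit2, Itga8, Sorcs3 and Six2 were called in all 25 fits that left out 1 library, but Osr1 and Pcsk5 in only 9 each, and with run in the fit Pcsk5 and Six2 were not called. Sorcs3 met the minimum of 10 RPKM only through 7 posterior libraries, so its being tested depended on its posterior level.

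In the posterior palate Osr1 was the only 1 of 50 pathway genes tested to be called between oral and nasal, at 46.9 RPKM ± 7.34 against 11.8 ± 3.37 (2.01, adjusted p = 0.0142). It was not called without posterior nasal replicate 1 or 3 or without posterior oral replicate 3. None of 47 was called between posterior lateral and posterior medial, or of 45 between anterior oral and anterior nasal, by limma, with 4 in each at an unadjusted p under 0.05. Pathway genes called between the medial to lateral differences of the anterior and posterior palate also numbered 0.

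Genes whose levels followed each member most closely over the 25 libraries, among 11913 genes, were found by Pearson's r on log2 values. These correlations share libraries, runs and depth. For Gdnf they were Slc26a7 (r = 0.926), Hs3st6 (0.870) and Cpxm2 (0.832), all highest on average in anterior medial. For Ntrk3 they were Samd8 (0.875), Mc4r (0.843) and Dcaf17 (0.843), and for Ntf3 Ctso (0.846), Npas3 (0.795) and Mid2 (0.779), the last 3 highest in posterior medial. For Bdnf they were Tie1 (0.837), an endothelial receptor gene, Fam38b (0.827) and Ino80d (0.811), all highest in posterior oral. For Ntrk2 they were Snx3 (0.809), Lox (0.803) and Dab2 (0.800), all highest in anterior nasal. For Gfra1 they were Nfkb1 (0.824), Gpt (0.821) and Gatsl2 (0.794), and for Gfra2 Slc25a42 (0.811), Il2ra (0.791) and Sdc2 (0.789), whose leading compartments differed.

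Among the members themselves, Gdnf and Ntrk3 had the highest r of the pairs, 0.787, and Ntf3 and Ntrk3 the lowest, -0.60. The ligand and receptor pair Bdnf and Ntrk2 had r = -0.31, and Gdnf and Gfra1 had r = 0.319.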

How the data were processed

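RNA from LCM samples was amplified and sequenced by the authors as single reads of 50 bases. TopHat and mm9 are named in the submitters' processing notes, and the authors computed the deposited RPKM values per gene in GeneSpring after removing duplicate and multiply aligned reads. The gene annotation is not given in the sources used here. By the paper's account the replicates of each compartment were biological, but labels did not tie compartments to embryos. The p-values measure only the spread between these samples, part of which may be technical.

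The members, the pathway and marker lists and the tests were chosen with earlier results of these data known. RPKM was transformed as log2(RPKM + 0.1) and compared with limma 3.58.1 in R 4.3.3, 2-sided with Benjamini-Hochberg adjustment over all genes tested and a threshold of 0.05. Pairs of compartments used genes at 5 RPKM or more in 3 of the compared libraries, and posterior versus anterior genes at 10 RPKM or more in 6 of 25. A member under the minimum entered the fit for its value and was never counted as called. Named genes were the 7 members, Ret and Ngfr, every pathway gene called in any of the 5 comparisons, and the 3 genes most correlated with each member. A further receptor gene under that rule is not reported here.

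Depth came from the steps between low RPKM values, and a read that overlapped an exon in part counted as a fraction, so read numbers are approximate. No 2 libraries were identical (0 pairs). One anterior medial column was headed by its alignment name and was assigned by the compartment and replicate in that name. Same-numbered libraries deviated together in anterior oral and nasal (correlations 0.116 to 0.242 over 3 pairs), and not in every pair of the other compartment comparisons. Correlations of differently numbered libraries were not computed, and the labels do not state pairs. By run, anterior oral replicate 2 went with nasal replicate 3 (run0324), and oral replicate 3 with nasal replicate 4 (run0175). The differences, SEs and calls reported are therefore from unpaired fits. Replicate numbers entered only in the replicate block, as an alternative. The fit was tested on simulated data. Alternatives were another pseudocount, median centring, no minimum, a fit of all 25 libraries with and without run, a replicate block and leaving out each library.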

Additional observations from a re-analysis of the deposited data

Results flagged for a closer look

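Ntrk3 differed between the anterior and the posterior palate in its medial to lateral contrast, by 3.92 on the log2 scale (SE 0.80), and by 4.76 without posterior medial replicate 3. All 3 anterior medial libraries were above all anterior lateral libraries, and all 3 posterior medial libraries were below all posterior lateral libraries. No p-value is given, since the gene was chosen with its levels known. Ntrk3 was in the fit of 11089 genes and was not called, Thbs2 being the only 1 called. Anterior medial libraries came from run0366 and posterior medial libraries from run0169 and run0366, and within run0366 Ntrk3 was 40.1 RPKM in anterior medial and 2.31 RPKM in posterior medial.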

How the results depend on the processing

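Over 602 recomputed values of 35 member differences, 581 kept their sign and 21 changed it, and 6 moved by more than 1 SD. Genes called between anterior lateral and medial (262) became 157 with no minimum, 31 in the fit of all 25 libraries, 0 with run added and 157 with the replicate block, and 55 to 195 when 1 library was left out. Calls of members are given for completeness only, as the members were chosen with their levels known. Those between anterior lateral and medial numbered 2, where 2.51% of all genes tested were called, and Gdnf met the minimum only through the 3 medial libraries. They became 1 with all 25 libraries and 0 with run. Without 1 library they were 1 to 2, as Gdnf fell under the minimum when any 1 medial library was left out. Pathway genes called there (6) became 2 with no minimum, 2 with all 25 libraries, 0 with run and 2 to 5 without 1 library. Between posterior lateral and medial (0 genes), 25 were called with all 25 libraries and 1 with run, and 0 to 1 without 1 library, and 1 pathway gene, Robo2, with all 25 libraries. Between anterior oral and nasal (0), 6 were called with all 25 libraries, 4 with run and 0 to 6 without 1 library. Between posterior oral and nasal (132), 11 were called with no minimum, 68 with all 25 libraries, 15 with run and 12 to 57 without 1 library, and pathway genes (1) became 3 with a pseudocount of 1, 3 with median centring, 0 with no minimum, 0 with run and 0 to 2 without 1 library. Between posterior and anterior (286, 3.32% of all genes tested), 485 were called with no minimum, when Gdnf joined Ntrk3 (2 members), and 143 with run. There were 231 to 414 without 1 library. Leaving out posterior medial replicate 2 and anterior oral replicate 1, an alternative chosen after seeing the data, gave 454. For the medial to lateral difference between sides, 1 pathway gene was called with a pseudocount of 1. The cause of these changes was not tested. In anterior oral and nasal, where same-numbered libraries deviated together, the replicate block called 0 genes as before. In the other pairs of compartments at least 1 of 3 pairs had a correlation under 0.1 (lowest -0.101, highest 0.305). There too the block was only an alternative, and it gave 157, 90 and 267 calls where there were 262, 132 and 286. Bdnf and Ret rested on medians of 10 and 7.0 reads and posterior Gdnf on 0 to 9.0, which limits them.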
